A study of Mus musculus with 8 samples.

Results

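Small structured RNA repeats are the stretches of the mouse genome that repeat annotation labels as copies of small nuclear RNAs (snRNA), small cytoplasmic RNAs (scRNA) or the RNA of the signal recognition particle (srpRNA). They were taken as every region of those 3 classes in a table of counts over open chromatin regions (OCRs) and repeats, which gave 16862 of 4650627 repeat copies, in a table of 4835895 regions. Of these, 3608 were snRNA, 12545 scRNA and 709 srpRNA copies, under 20 names. The scRNA class held 10688 copies named BC1_Mm, 1797 of 4.5SRNA, and the Y RNAs HY1 (39), HY3 (15), HY4 (5) and HY5 (1). The snRNA class held U6 (1325), U2 (931), 7SK (616), U1 (319), U3 (113), U4 (101), U5 (94), U7 (41), U13_ (24), U17 (19), U13 (13), U8 (7) and U14 (5), and the srpRNA class held 7SLRNA alone (709).

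Chromatin accessibility was measured by ATAC-seq, in which a transposase cuts accessible DNA in nuclei, in primary lung fibroblasts from 4 cGAS knockout (KO) and 4 wild-type (WT) mice, 2 female and 2 male of each genotype. cGAS is the sensor of cytosolic DNA that starts the type I interferon response. All cells were grown at 5% CO2 and 5% O2, per the labels, and no other treatment is given. Libraries are named by genotype, sex label and number (KO F1, WT M2), and each comes from a separate mouse per the series' design text. Strain, age, the design of the knockout allele and the passage of the cells were not given in the sources used here.

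Small nuclear RNAs work in complexes with proteins in the nucleus. U1, U2, U4, U5 and U6 RNAs build the spliceosome, U7 RNA directs the cleavage of histone transcripts, and 7SK RNA holds the elongation factor P-TEFb in an inactive state. U3, U8, U13, U14 and U17 are nucleolar RNAs that take part in making ribosomal RNA, 7SL RNA is the scaffold of the signal recognition particle, Y RNAs bind the Ro protein, and BC1 is a translational regulator known from neurons. Most of these RNAs come from few genes, while many annotated copies are truncated or diverged pseudogenes that arose by retrotransposition. 7SL RNA and BC1 RNA are related to the abundant B1 and ID families of short interspersed elements. RNA polymerase III transcribes the genes of U6, 7SK, 7SL, the Y RNAs, BC1 and 4.5S RNA, and RNA polymerase II those of the other spliceosomal RNAs and of U3, U7 and U8.

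The start of the Bc1 gene is shown because BC1_Mm is the name with the most copies and because 1 copy matching the gene in chromosome and length lay inside an OCR. The sequence covers the 250 bases before the start site in lower case and the first 50 transcribed bases in capitals, 5′ to 3′ on the plus strand of chromosome 7, from RefSeq on GRCm38.p6, a build other than that of the counts.
Bc1 promoter: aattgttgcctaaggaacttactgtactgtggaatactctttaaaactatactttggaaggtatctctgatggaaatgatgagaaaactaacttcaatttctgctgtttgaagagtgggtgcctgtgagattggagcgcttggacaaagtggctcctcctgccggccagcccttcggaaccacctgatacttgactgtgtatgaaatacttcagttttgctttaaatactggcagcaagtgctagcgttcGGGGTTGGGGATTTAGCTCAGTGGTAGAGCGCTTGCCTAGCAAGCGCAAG
An A box, an internal promoter element of RNA polymerase III genes, began at transcribed base 14 on the same strand, and 34.4% of 32851 RefSeq promoters of the same length held an A box on either strand. The B box, the other internal element, was not found in this window on either strand, and 0.122% of the promoters held it. The window ends at transcribed base 50, so it cannot show whether the gene holds a B box further in. The letters TATAAA were not found in this window on either strand, and 13.6% of the promoters held them on one or the other.

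Library totals over the whole table ranged from 43247448 counts in KO M2 to 72915716 in KO M1. OCRs took 64.6% (KO M2) to 76.4% (WT M1) of the counts, and the 16862 members took 0.0707% (WT M2) to 0.0913% (KO M2). The library labelled KO F2 went against its sex label: its 15 OCRs in the first 2 Mb of the Y chromosome held 17.4 CPM, against 22.3 to 30.7 CPM in the male-labelled libraries while the remaining female-labelled libraries held no more than 0.0407 CPM. Its sex label was kept as given, and results without it are given beside the comparisons of genotype, of sex label and of their interaction. CPM are the usual depth-normalised counts, relative to a library's total after scaling by the trimmed mean of M-values (TMM).

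Few copies lay inside an OCR, meaning that they shared at least 1 bp with one, and these few held close to as many counts as all the others together. Of the 16862 copies, 806 (4.78%) were inside an OCR, against 4.24% of all 4650627 repeat copies. By class the shares were 5.24% for snRNA, 4.57% for scRNA and 6.21% for srpRNA. Other repeats of structured RNAs were inside OCRs more often, with 13.3% of tRNA and 13.9% of rRNA copies, and the related short elements had 3.90% (B1), 5.13% (ID) and 4.28% (B2). The 806 copies nevertheless held a median of 47.9% of the members' counts over the 8 libraries (38.8% to 54.1%). OCRs were called on these same libraries, so a higher count inside them is a description and was not tested. A copy inside an OCR also gives part of each read end to the OCR, which lowers its own count.

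Count density, given as CPM per kb of copy, was 4.74 inside OCRs and 0.303 outside on average over the libraries, and the ratio of the 2 ranged from 11.4 to 21.2. Among the 15 names averaging 100 or more counts it was highest inside OCRs for U3 (28.9), followed by U8 (13.9), U2 (12.5), 4.5SRNA (11.2), U13 (10.97), U5 (10.8) and U1 (9.81), and it was 1.92 for BC1_Mm. U6 (2.92) and 7SK (3.17) lay near the low end. Outside OCRs the names with copies on both sides ranged from 0.0865 (U7) to 0.551 (U17). The U14 copies, none of which was inside an OCR, had 4.12.

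**Figure D1:**
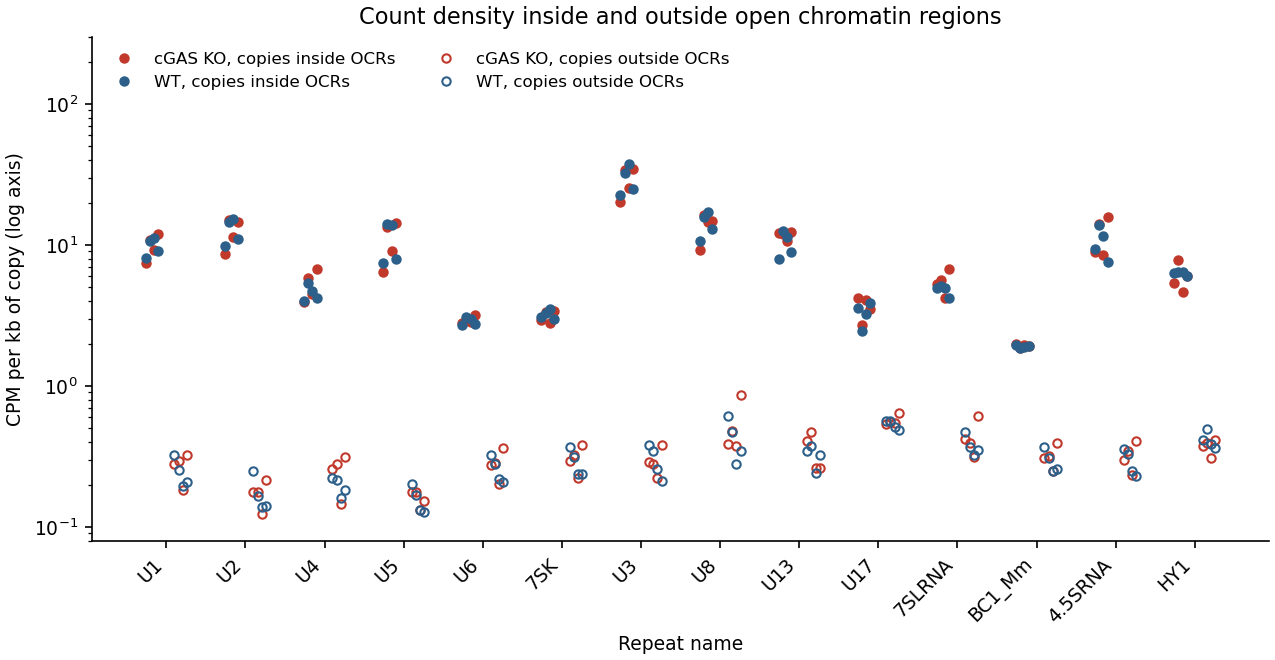
Count density (CPM per kb of copy, log axis) of 14 repeat names with at least 100 counts per library and copies on both sides, for copies inside (filled) and outside (open) OCRs, 1 point per library, cGAS KO in red and WT in blue. Inside copies lie above outside copies for every name and library shown, most of all for U3 and least for BC1_Mm and U17.

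Copy length went with position inside an OCR for most names. A copy was called long when it had at least 90% of the length that marks the upper 5% of its name's copies. Of 3018 long members 203 (6.73%) were inside an OCR, and of 13844 shorter ones 603 (4.36%). The rule of at least 1 shared bp by itself favours longer copies. Among the 12 names with at least 10 long copies, the contrast was widest for U5, with 7 of 12 long copies inside (58.3%) against 1 of 82 shorter ones (1.22%). For U4 it was 5 of 13 (38.5%) against 5 of 88 (5.68%), for U3 5 of 17 (29.4%) against 4 of 96 (4.17%), for U2 13 of 52 (25.0%) against 27 of 879 (3.07%), and for U1 24 of 156 (15.4%) against 5 of 163 (3.07%). In 3 of the 12 it ran the other way. Long copies were inside in 2.72% against 3.68% for U6 (22 of 808 and 19 of 517), in 4.203% against 4.54% for BC1_Mm (53 of 1261 and 428 of 9427), and in 9.09% against 15.4% for U13_ (1 of 11 and 2 of 13).

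**Figure D2:**
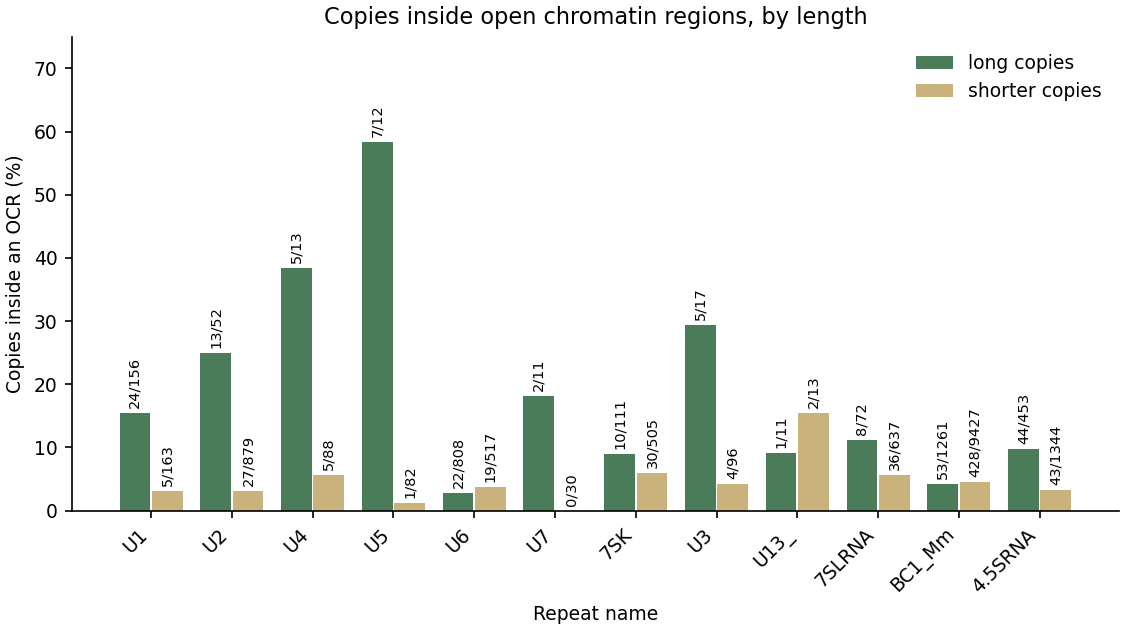
Percent of copies inside an OCR for long copies (green) and shorter copies (tan) of the 12 repeat names with at least 10 long copies; the numbers above the bars give copies inside over all copies of that length class. The U5 bar of long copies is the highest (7 of 12), and for U6, BC1_Mm and U13_ the shorter copies are inside more often.

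The long copies inside OCRs were often neighbours. Runs of 3 or more long copies of 1 name inside OCRs, each at most 100 kb from the next, were found 8 times and held 55 of the 203 such copies. This definition was chosen after the counts were seen. All coordinates below are in GRCm39. No source used here says how reads were placed among similar copies, so values of single copies within a run are uncertain. The sum over the run is the firmer value, but it too may hold reads from similar copies elsewhere, which was not tested.

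Among the spliceosomal RNAs, U1 had its strongest run on chromosome 12 (12:54743567-54785404), with 7 copies of 164 to 165 bp at 2.995 to 4.43 CPM each, and these held a median of 46.7% of all U1 counts. A second U1 run on chromosome 3 (3:96235741-96396209) had 9 copies at 0.10 to 1.69 CPM and 13.2% of the counts, and a U1 pair on chromosome 11 (11:87313693-87313857 and 11:87317542-87317705) had 3.82 and 3.34 CPM. The RefSeq gene Rnu1a1 (164 bp, chromosome 11) and Rnu1b1, Rnu1b2 and Rnu1b6 (165 to 166 bp, chromosome 3) match in chromosome and in length to within 3 bp, but their placement could not be compared between builds. By that rule 7 copies fit Rnu1a1, 2 of them inside OCRs, and 16 fit Rnu1b1, 9 of them inside. For U2, 5 copies of 187 bp on chromosome 11 (11:101495676-101549250) held 46.6% of the counts at 2.29 to 5.90 CPM each, and 4 copies on chromosome 1 (1:72265399-72294353) held 27.8% at 3.16 to 4.06 CPM. The chromosome and length of the RefSeq gene Rnu2-10 (187 bp, chromosome 11) fit the first of these runs, among 7 copies that fit, 6 of them inside OCRs.

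U4 had 1 pair of 144-bp copies on chromosome 5 (5:115627518-115627661 and 5:115628313-115628456), with 2.20 and 2.06 CPM, and the first alone held 32.2% of the U4 counts. U5 had 3 copies of 117 bp on chromosome 4 (4:117047139-117068157), with 34.1% of the counts, and a pair on chromosome 9 (9:65103853-65103969 and 9:65109008-65109123), with 1.87 and 2.18 CPM. U6 differed from the other spliceosomal RNAs, since a median of only 25.5% of its counts lay inside OCRs. Its copy with the most counts (10:79821340-79821445, 106 bp) was outside any OCR, with 1.54 CPM (94.9 counts per library). Copies inside OCRs give part of each read end to the OCR, so this rank does not compare like with like. A U6 pair on chromosome 12 (12:52650571-52650676 and 12:52651269-52651374) was inside OCRs, with 1.35 and 1.12 CPM. The U7 copy matching the RefSeq gene Rnu7 in chromosome and length (6:124718188-124718249, 62 bp) held 74.9% of the few U7 counts (0.621 CPM).

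7SK counts were led by 1 copy on chromosome 9 (9:78082584-78082915, 332 bp), the only one of the chromosome and length of the RefSeq gene Rn7sk, with 6.84 CPM and 12.1% of the 7SK counts. It began 69 bp into its OCR and was followed by 738 bp of it. Among the nucleolar RNAs, 4 U3 copies of 214 bp on chromosome 11 (11:87334063-87362407) were the 4 member copies with the most counts of all, at 8.47 to 9.20 CPM, and held a median of 80.6% of the U3 counts. Another U3 copy on chromosome 10 (10:40134463-40134675), of the chromosome and length of the RefSeq gene Rnu3a, had 5.11 CPM. U8 and U13 each had 1 copy that held most of their counts, at 11:68964252-68964388 (1.91 CPM, 85.6%) and 8:31639889-31639996 (2.11 CPM, 79.2%). U17 had 2 neighbouring copies on chromosome 4 (4:132079636-132079838 and 4:132080088-132080291), with 1.12 and 0.771 CPM. The leading U14 copy (9:40716044-40716133) had 1.03 CPM with no OCR over it.

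Of the cytoplasmic RNAs, 7SLRNA had 2 copies of 300 bp on chromosome 12, at 12:69206069-69206368 (8.36 CPM) and 12:69407956-69408255 (6.88 CPM). RefSeq lists the genes Rn7s1 and Rn7s2, of 299 bp, on that chromosome. The largest run was that of 4.5SRNA on chromosome 6 (6:47627696-47755273), with 16 copies of 93 to 94 bp inside OCRs and 52.0% of the 4.5SRNA counts. Neighbouring starts lay 4239 to 54596 bp apart, with a median of 4336 bp, and the cause of the widest step was not tested. The run was flanked by Y RNA copies, with HY5 13.5 kb before it (no OCR) and HY3 and HY1 3.29 and 9.73 kb after it, both inside OCRs, at 0.402 and 0.830 CPM. A second 4.5SRNA run on chromosome 6 (6:128737671-128827311) had 7 copies and 8.42% of the counts. BC1_Mm had no such run, and its copy with the most counts (8:11443667-11443803, 137 bp, inside an OCR) had 1.58 CPM and 0.446% of the BC1_Mm counts. The 154-bp copy at 7:144468207-144468360, which has the chromosome and length of the RefSeq gene Bc1, was inside an OCR of 1431 bp and had a mean of 22.3 counts per library. Of the 161 unbroken BC1_Mm copies with at least 90% of the gene's length it ranked 2nd by CPM (0.359), after a 144-bp copy at 6:122851200-122851343 (0.496), which lay only partly inside its OCR. This cut was not planned. It leaves out the 137-bp copy above and a copy of 154 bp in 2 fragments at 5:137087608-137087838 (0.783 CPM, outside OCRs). In all, 3 BC1_Mm copies on chromosome 7 fit the length of Bc1 to within 3 bp. Only 1 of them was inside an OCR, and the rest had 0.027 and 0.00244 CPM.

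Between KO and WT mice, no difference was called for any of the 15 names that averaged 100 or more counts in a library. With edgeR's quasi-likelihood test, 0 of 15 passed an adjusted p of 0.05, against 0% of all 2069 repeat names tested, and 0 of 15 (4 of 2069) had an unadjusted p under 0.05. DESeq2 called 0 of 15 as well (0% of 2069), with 0 of 15 and 27 of 2069 at an unadjusted p under 0.05. In 10 of 15 names the fitted value was higher in KO, with a median log2 difference of 0.04, against 1720 of 2069 and a median of 0.10 over all names. The groups overlapped for all 15, while they did not for 0.532% of all names. When the scaling factors came from repeat names alone, the median over all names moved to 0.0026 and that of the 15 to -0.07, with 6 of 15 higher in KO, so the directions below are relative to the scaling. HY3, HY4, HY5, U7 and U13_ were under 100 counts per library (1.5 to 87.0) and were not tested.

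**Figure D3:**
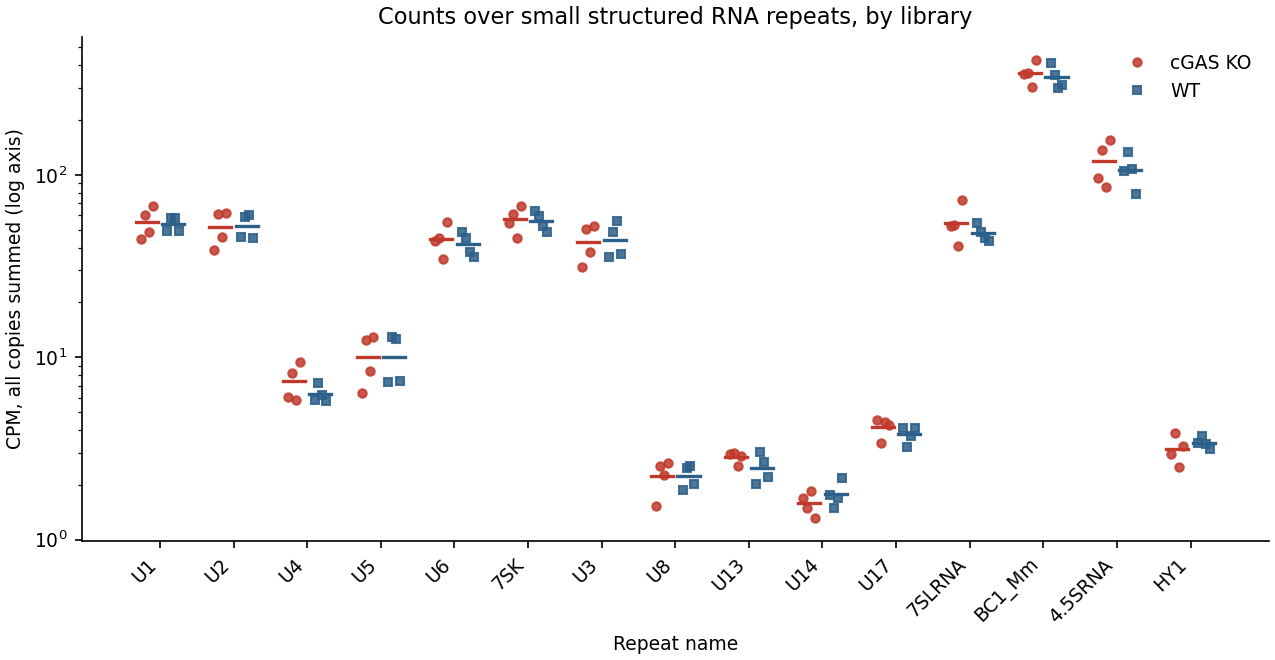
CPM (log axis) summed over all copies of each of the 15 tested repeat names, 1 point per library, cGAS KO as red circles and WT as blue squares, with a bar at each group's mean. The 2 groups overlap for every name.

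Spliceosomal RNAs varied within each genotype. U1 had 44.4, 60.4, 48.7 and 67.3 CPM in KO F1, F2, M1 and M2, and 49.4, 57.9, 58.3 and 49.1 CPM in WT F1, F2, M1 and M2. The KO values thus lay on both sides of the WT range, with means of 55.2 ± 10.5 and 53.7 ± 5.16 CPM (SD, n = 4 each). The U1 fold of KO over WT was 1.03 (95% interval 0.787 to 1.34). U2 had 38.7, 61.3, 45.7 and 61.5 CPM in the KO libraries in the same order, and 45.5, 58.7, 60.4 and 45.1 CPM in the WT libraries (fold 0.987, 0.719 to 1.36). U5 had 6.39, 12.5, 8.47 and 12.98 CPM in KO and 7.34, 12.9, 12.5 and 7.43 CPM in WT (fold 0.997, 0.623 to 1.596). In U2 and U5 each genotype split into 2 low and 2 high libraries. U4 ranged from 5.81 to 9.42 CPM in KO and from 5.78 to 7.26 in WT (fold 1.17, 0.870 to 1.58), and U6 from 34.8 to 55.3 CPM and from 35.5 to 48.9 CPM (fold 1.08, 0.819 to 1.42).

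7SK had 54.6, 60.7, 45.2 and 67.5 CPM in the KO libraries and 63.6, 59.2, 52.6 and 48.5 CPM in the WT libraries (fold 1.02, 0.796 to 1.31). Its lowest and its highest value were both KO. U3 had 31.1, 50.4, 37.7 and 52.2 CPM in KO and 35.3, 48.7, 55.9 and 36.9 CPM in WT, again with 2 low and 2 high libraries per genotype (fold 0.969, 0.680 to 1.38). The smaller nucleolar names had folds from 0.899 (U14, 0.698 to 1.16) to 1.14 (U13, 0.899 to 1.45), with U8 at 1.00 (0.741 to 1.36) and U17 at 1.10 (0.877 to 1.37). 7SLRNA had 52.6, 53.3, 40.7 and 72.6 CPM in KO and 54.6, 48.7, 45.01 and 43.2 CPM in WT (fold 1.147, 0.847 to 1.55). BC1_Mm had 358, 362, 304 and 429 CPM in KO and 411, 352, 300.2 and 310.4 CPM in WT (fold 1.06, 0.813 to 1.39). KO M2 was the highest library for both of these names, and also for U1, U2, U4, U5, U6, 7SK, U8 and 4.5SRNA. It was not the highest for U3, U13, U14, U17 and HY1. KO M2 also had the lowest total and the lowest share of counts in OCRs, whose part in these values was not tested. 4.5SRNA had 96.7, 137, 85.4 and 156 CPM in KO and 106, 133, 108 and 79.1 CPM in WT (fold 1.12, 0.769 to 1.64), and HY1 had 2.50 to 3.83 and 3.15 to 3.70 CPM (fold 0.922, 0.738 to 1.151). Leaving out KO F2, whose sex label is in doubt, gave 0 of 15 calls and a median log2 difference of 0.03.

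**Figure D4:**
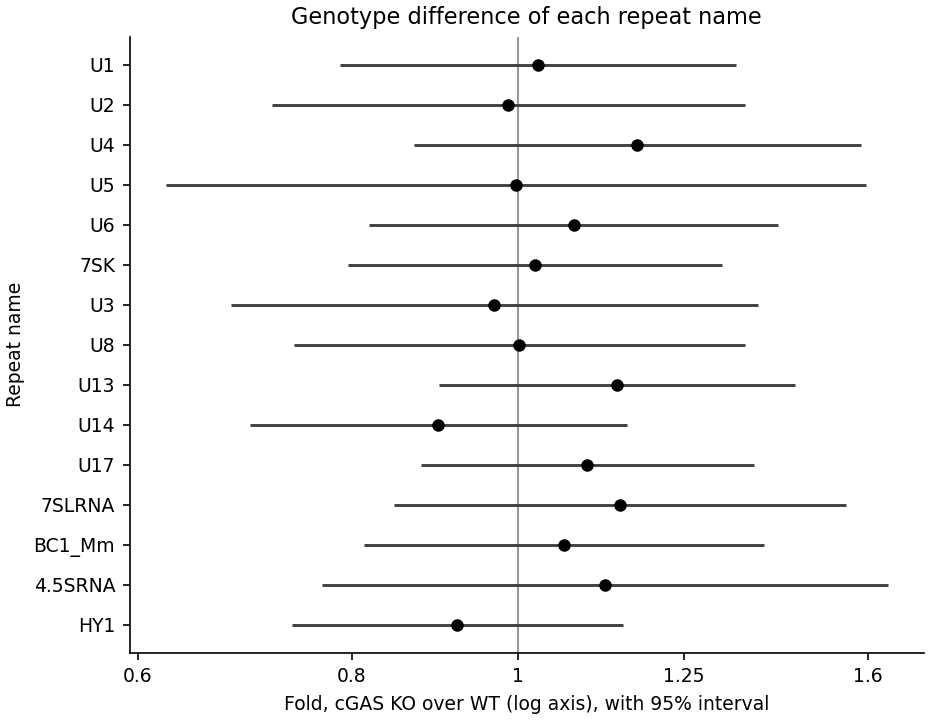
Fold of cGAS KO over WT (log axis) for each of the 15 tested repeat names, from edgeR, with its 95% interval. All 15 intervals include 1; the widest belongs to U5 (0.623 to 1.596).

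The share of the table taken by each class did not separate the genotypes. For snRNA copies the share was 0.0279 ± 0.00387% among KO libraries and 0.0279 ± 0.00308% among WT libraries (mean ± SD of 4; exact two-sided permutation p = 1, adjusted over the 3 classes 1). scRNA copies took 0.0479 ± 0.00509% and 0.0456 ± 0.00420% (exact permutation p = 0.486, adjusted 0.729), and srpRNA copies 0.00538 ± 0.000914% and 0.00481 ± 0.000282% (exact permutation p = 0.314, adjusted 0.729). The part of each class's counts that lay inside OCRs was 66.5 ± 4.53% in KO and 67.8 ± 7.25% in WT for snRNA (exact permutation p = 0.743, adjusted 1). It was 33.8 ± 2.13% and 34.2 ± 4.41% for scRNA (exact permutation p = 0.943, adjusted 1), and 50.5 ± 2.89% and 50.5 ± 4.06% for srpRNA (exact permutation p = 1, adjusted 1). With 4 against 4 libraries the smallest p this exact test can give is 0.0286. Leaving out KO F2, KO minus WT was -0.00116 (snRNA), 0.00145 (scRNA) and 0.000587 (srpRNA) percentage points for the shares of the table. For the shares inside OCRs it was then -1.99, -0.856 and -0.874 percentage points in the same order.

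Of the 16862 single copies, 235 averaged 20 or more counts in a library and were tested, 185 of them inside OCRs. edgeR called 0 of 235 (0% of 140123 repeat copies), 4 of 235 had an unadjusted p under 0.05 (5238 of 140123), and DESeq2 called 0 of the 112 members it kept (0.0586% of 47756 copies). Fitted values were higher in KO for 131 of 235, with a median log2 difference of 0.04 against 0.10 over all copies tested. Leaving out KO F2 gave 107 of 235 higher in KO and a median of -0.058, against 0.14 over all copies tested, with 0 of 235 called by edgeR. The 10 copies with the most counts were the 4 U3, 2 7SLRNA, 1 7SK and 3 U2 copies named above, and their folds ranged from 0.909 (U2, 11:101549064-101549250) to 1.11 (7SLRNA, 12:69206069-69206368). For the U3 copy at 11:87334063-87334276 the values were 6.31, 10.7, 8.37 and 11.1 CPM in KO and 7.52, 9.75, 12.01 and 7.87 CPM in WT (fold 0.980, 0.718 to 1.34).

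The copies with the lowest p were not from these runs. A 72-bp BC1_Mm copy (4:107175949-107176020, outside OCRs) had 1.24, 0.288, 1.06 and 0.558 CPM in KO and 0.546, 0.190, 0.101 and 0.218 CPM in WT (3.21-fold, edgeR adjusted p = 1). KO F2 lay below WT F1 there, so the groups overlapped. A 59-bp 4.5SRNA copy (3:9070734-9070792) was 3.08-fold and a 202-bp 7SK copy (3:82701011-82701212, inside an OCR) 2.31-fold higher in KO (edgeR adjusted p = 1 for both), with overlapping groups. Lower in KO were BC1_Mm copies at 11:32644004-32644094 (0.650 ± 0.0987 against 1.00 ± 0.177 CPM, n = 4 each), 5:137087608-137087838 (0.628 ± 0.0638 against 0.938 ± 0.122 CPM) and 15:95975780-95975854 (0.286 ± 0.0912 against 0.420 ± 0.0468 CPM, edgeR adjusted p = 1 for all 3). In 4 of 235 copies (1.70%) the groups did not overlap, against 2.85% of all copies tested. These were the first 2 of the 3 last-named copies, a BC1_Mm copy at 16:29862002-29862116 (lower in KO) and a U6 copy at 15:77724857-77724956 (higher in KO), the latter 2 named after their values were seen.

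The 801 OCRs that held a member were longer than others, with a median of 643 bp against 519 bp for all 185268, and 5 of them held 2 or more members. OCRs with a long member had a median length of 777 bp, and those with shorter members only 598.5 bp. Holding a member was defined by at least 1 shared bp, which by itself favours longer OCRs. Each copy was assigned to 1 OCR only, and for at most 6 member copies a further overlapped OCR was not counted. OCRs holding other repeats were not compared. edgeR called 0 of 801 between genotypes (0% of 185130 tested), while 57 of 801 had an unadjusted p under 0.05 (18286 of 185130). DESeq2 called 6 of the 751 it kept, against 1.6% of 170773 OCRs. In 36 of 801 (4.49%) the groups did not overlap, against 5.98% of all OCRs. The median log2 difference was 0.02, against 0.00028 over all OCRs, and 439 of 801 were higher in KO. Leaving out KO F2 gave a median of -0.0028, against -0.010 over all OCRs, with 399 of 801 higher in KO and 0 called by edgeR.

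For each direction of change, the 3 member-holding OCRs of smallest p held a BC1_Mm or a 4.5SRNA copy. These names made up most of the 806 member copies inside OCRs, with 481 for BC1_Mm and 87 for 4.5SRNA. In each of these 6 OCRs the groups did not overlap, which their choice by p favours. CPM here are relative to the counts over OCRs. The OCR at 19:46498973-46500076 had 11.9, 13.1, 10.1 and 15.97 CPM in KO and 8.498, 8.77, 7.79 and 6.56 CPM in WT (1.62-fold, 1.24 to 2.11, edgeR adjusted p = 0.322). Those at 3:154135034-154135542 and 12:102333365-102333719 had lower levels and wider folds, with 1.77 ± 0.383 against 0.592 ± 0.369 CPM and 1.94 ± 1.02 against 0.616 ± 0.1498 CPM (n = 4 each, edgeR adjusted p = 0.322 for both). Lower in KO were the OCRs at 4:45253991-45254822 (4.18 ± 0.397 against 6.30 ± 0.666 CPM) and 5:64269486-64270375 (25.1 ± 2.32 against 33.3 ± 4.10 CPM), also with an edgeR adjusted p of 0.322. The sixth, at 3:107255697-107256067, held the 4.5SRNA copy and had 0.758 ± 0.114 against 1.398 ± 0.0882 CPM (n = 4 each, edgeR adjusted p = 0.323). DESeq2 called 4 of these 6 (adjusted p from 0.0195 to 0.0422), and did not call the OCRs on chromosome 5 (0.127) and at 3:107255697-107256067 (0.0975). Its other 2 calls were at 15:86096292-86096793 and 17:7253444-7253974, both higher in KO.

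The spread within each genotype had an order that recurred. In each of the 8 runs of long copies, the 4 lowest summed CPM were those of KO F1 and KO M1 and of WT F1 and WT M2, and the same held for the summed counts of the OCRs over these copies. The U3 run had 25.0 and 31.0 CPM in KO F1 and KO M1 and 27.9 and 30.7 CPM in WT F1 and WT M2, against 40.6 and 41.9 CPM in KO F2 and KO M2 and 38.9 and 47.2 CPM in WT F2 and WT M1. The 16-copy 4.5SRNA run had 46.0, 42.5, 47.1 and 38.2 CPM in the former 4 and 74.4, 85.1, 72.6 and 59.4 CPM in the latter. From the lowest to the highest library the factor ranged from 1.498 (U1 on chromosome 12) to 2.60 (U5). This order crosses genotype, sex label and number, and no test was made on it. The median log2 difference of KO minus WT over the copies of a run lay between -0.08 (U1 on chromosome 3) and 0.20 (4.5SRNA, 16 copies). The runs are not independent measurements, since they come from the same 8 libraries.

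**Figure D5:**
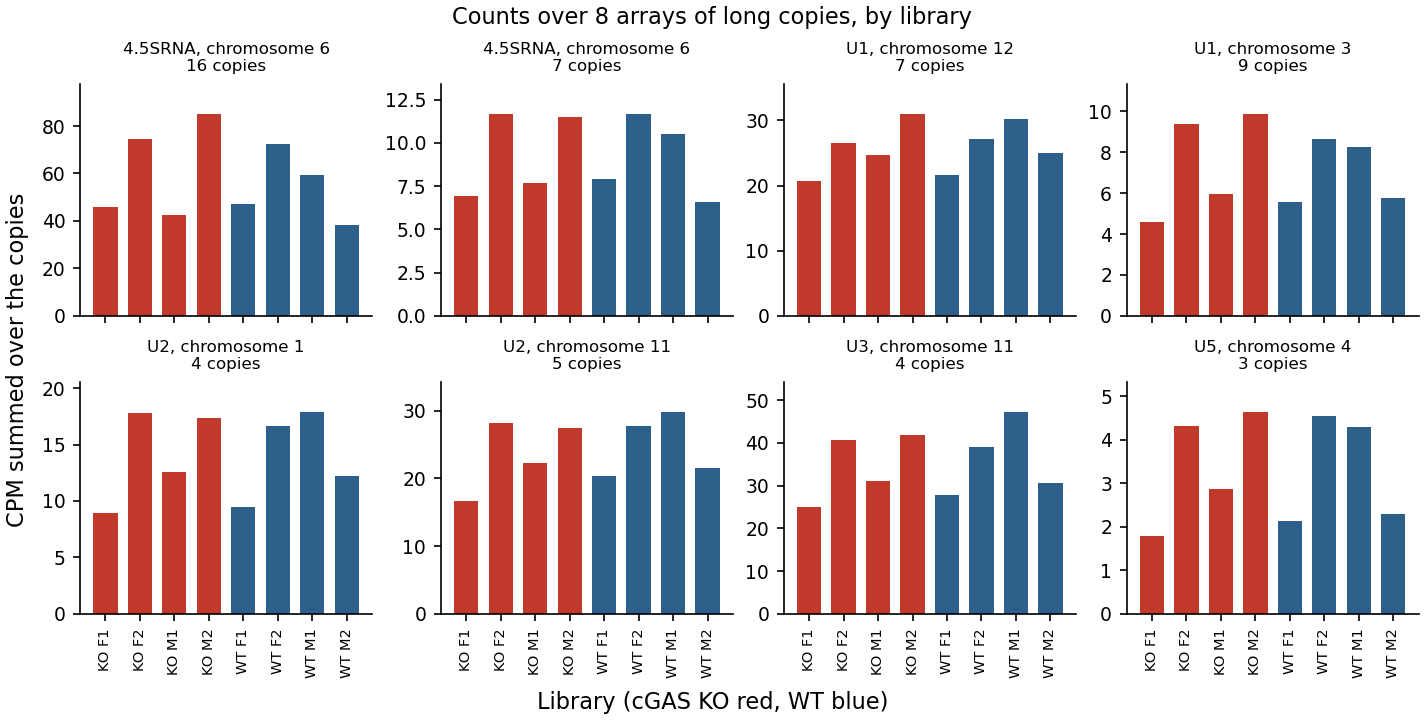
CPM summed over the long copies inside OCRs of each of 8 runs (bars from 0, own scale per panel), for the 4 cGAS KO libraries in red and the 4 WT libraries in blue. In every panel the 4 lowest bars are F1 and M1 of the KO and F1 and M2 of the WT.

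Summed over all copies inside OCRs, U6 and 7SK had the same 4 lowest libraries with a smaller spread, a factor of 1.17 and 1.27 from lowest to highest, against 2.22 for U5 and 2.08 for 4.5SRNA. Not every name followed this order. For 7SLRNA WT M1 was among the 3 lowest libraries and KO F1 among the 3 highest. For HY1 KO M2 was among the 3 lowest, and for U13 KO F1 was among the 3 highest. BC1_Mm varied by a factor of 1.07, and its lowest (77.5 CPM, WT F2) and highest (83.0 CPM, KO F1) library lay the other way round. U17 ran the opposite way too, with 3.30, 3.18, 2.79 and 3.004 CPM in these low 4 libraries (KO before WT) and 2.12, 2.75, 1.92 and 2.53 CPM in KO F2, KO M2, WT F2 and WT M1. Among other classes, tRNA copies inside OCRs had 6.28, 6.76, 7.42 and 6.22 CPM per kb in the first 4 libraries and 11.4, 11.9, 11.3 and 9.76 in the others, while B1 copies stayed within 1.84 to 1.97. B2 copies had 1.86 to 1.96 in the first 4 and 2.12 to 2.21 in the others. ID copies ran the opposite way, with 2.59 to 2.69 against 2.40 to 2.47. For rRNA copies WT F1 (26.6), of the first 4, lay above WT M1 (24.4), of the others. Outside OCRs another order was seen. KO M1, WT M1 and WT M2 were each among the 3 lowest libraries for 13 of 15 names, and WT F1 and KO M2 were among the 3 highest for 13 and 12. Those 3 low libraries had the highest shares of counts in OCRs (75.8%, 76.4% and 74.5%) and those 2 high libraries the lowest (65.1% and 64.6%), and the part of this in the counts outside OCRs was not tested.

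Summing only the copies outside OCRs left 9 names with enough counts, of which 0 were called by edgeR (0 at an unadjusted p under 0.05) and 7 were higher in KO, with a median log2 difference of 0.11 against 0.16 over 1608 names. Summing only the copies inside OCRs left 14, of which 0 were called (0 at an unadjusted p under 0.05), with a median of 0.02 against 0.02 over 1532 names. This second sum was added after the data were seen.

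Between male-labelled and female-labelled libraries edgeR called 0 of 15 names (0% of 2069), and its unadjusted p was under 0.05 for 0 of 15 and 13 of 2069. DESeq2 called 0 of 15 and 1 of 2069. The median log2 difference of male minus female over all names was -0.16 with TMM and 0.0057 with DESeq2's own scaling. Without KO M2, edgeR called 4 of 15 names and 52.5% of all names. These 4 were U6, 7SK, 7SLRNA and BC1_Mm, with log2 differences of -0.35, -0.31, -0.29 and -0.29 (edgeR adjusted p = 0.0105, 0.0187, 0.0218 and 0.0263), all lower in male-labelled libraries, with the Y-positive KO F2 counted as female. The median over all 2069 names in that fit was -0.32, and 1086 of the 1087 names called were lower in male-labelled libraries. The shift was thus not particular to these 4 names. Without KO F2 edgeR called 0 of 15 names, with 0 of 15 and 19 of 2069 at an unadjusted p under 0.05. The count of 0 thus rested on KO M2, and the share of the 15 called without it was below that of all names. The interaction of genotype and sex label was past the threshold in 0 of 15 names (0% of 2069), with 0 of 15 and 2 of 2069 at an unadjusted p under 0.05 in edgeR, and in 0 of 15 by DESeq2. Without KO F2 it was again 0 of 15. Without KO M1 it was 0 of 15, but 4 of 15 and 983 of 2069 names had an unadjusted p under 0.05, and the smallest edgeR adjusted p among the 15 was 0.0516.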

How the data were processed

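The members and the lists were chosen with earlier results of these data known. ATAC-seq libraries of 8 mice were processed by the authors; per the submitters' processing notes the build was GRCm39 and the tools were featureCounts, MACS2, Bowtie2, Picard, bedtools, Trim Galore and SAMtools. Per the file headers, featureCounts 2.0.3 gave the deposited estimated counts, in which a read is reduced to its 5′ end and a read end in several regions adds an equal fraction to each. The rules for multi-mapping reads, read shifting and peak merging were not given in the sources used here.

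Counts were rounded and fitted with edgeR 4.0.16 (quasi-likelihood, TMM factors from OCRs and repeat names together, sex label as covariate, Benjamini-Hochberg adjustment, threshold 0.05), over all repeat names with a mean of at least 100 counts, all copies with at least 20 and all OCRs kept by filterByExpr. DESeq2 1.42.0, limma 3.58.1 and the other alternatives are described in the closing section. Named copies were the 10 with the most counts and, for each direction, the 3 of lowest p; named OCRs were likewise 3 per direction. The 5 leading copies outside OCRs, the runs of copies and the Bc1 promoter were chosen after the values were seen. Shares were compared by exact two-sided permutation. On simulated data edgeR recovered 7.23%, 66.7% and 100% of repeat names changed 1.2, 1.5 and 2-fold, 15.2% of single copies changed 2-fold and 31.4% of OCRs changed 2-fold. The simulation drew each row independently and took its scaling factors from the simulated rows alone. Names and copies were fitted with other factors and may share shifts between libraries, so these percentages do not give the power of their fits. Each library is a separate mouse per the series' design text. RefSeq names and lengths come from GRCm38.p6, so only chromosome and length (within 3 bp) were compared with the copies.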

Additional observations from a re-analysis of the deposited data

How the results depend on the processing

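Between genotypes, the 0 calls among names, copies and OCRs did not change under the alternatives run for each, except that DESeq2 called 6 OCRs; the cause was not tested. Log2 differences of several names turned sign, including those of U4 (0.23) and 4.5SRNA (0.17). With DESeq2 they were -0.0039 for BC1_Mm, -0.068 for 7SK, -0.064 for U1 and -0.087 for U8. With TMM factors from repeat names alone they were -0.0058, -0.070, -0.066 and -0.088 for the same names. With limma they were -0.13 for 4.5SRNA, -0.10 for 7SK, -0.13 for U1, -0.013 for U4, -0.045 for U6 and -0.15 for U8. RLE factors gave 0.0091 for U5 and copies outside OCRs 0.021 for U2. Copies inside OCRs, an alternative added after seeing the data, gave -0.045 for 7SK and -0.046 for U8. Among shares, snRNA outside OCRs differed by 0.000429 percentage points, scRNA as a share of repeat counts by -0.00259, and srpRNA in copies wholly inside OCRs by -0.988. The cause of these turns was not tested.

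Leaving out 1 library at a time gave log2 differences of -0.071 to 0.32 (4.5SRNA), -0.12 to 0.13 (7SK), -0.024 to 0.33 (7SLRNA), -0.053 to 0.17 (BC1_Mm), -0.076 to 0.15 (U1), -0.15 to 0.12 (U2), -0.20 to 0.092 (U3), -0.20 to 0.20 (U5), -0.079 to 0.21 (U6) and -0.13 to 0.16 (U8). Those that kept their sign ranged from 0.054 to 0.35 (U4), 0.080 to 0.31 (U13), 0.063 to 0.21 (U17), -0.22 to -0.038 (U14) and -0.21 to -0.016 (HY1). Inside shares ranged from -4.71 to 1.06 percentage points (snRNA), -2.42 to 1.11 (scRNA) and -1.52 to 1.53 (srpRNA), and the snRNA share of the table from -0.00116 to 0.00147, the scRNA share from 0.000377 to 0.00408 and the srpRNA share from 0.000158 to 0.00089. Calls between sex labels ranged from 0 to 4 (4 without KO M2), and calls between genotypes were 0 throughout.

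The deviations of same-numbered libraries correlated at 0.590 (F1), 0.612 (F2), -0.295 (M1) and -0.452 (M2), and not every library correlated best with its own number, so the numbers were not taken to pair the samples. With the replicate block edgeR called 0 names, 0 copies and 0 OCRs, U8 had a log2 difference of -0.0049, and the sign-flip test of each of the 6 shares had an adjusted p of 1 (the smallest unadjusted p that 4 pairs allow is 0.125). Single copies were mostly too shallow to test, since 16627 of 16862 had a mean under 20 counts.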

Other observations

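Outside OCRs, the 5 member copies with the most counts were a U6, a 7SK, a U14 and 2 BC1_Mm copies, chosen after their values were seen. The 7SK copy at 17:36552771-36552998 had 1.82, 1.07, 1.07 and 0.989 CPM in KO F1, F2, M1 and M2 and 1.37, 1.22, 0.621 and 0.992 CPM in WT F1, F2, M1 and M2. The BC1_Mm copies at 9:80026474-80027372 and 2:167437267-167437343 had means of 0.881 and 0.803 CPM. The genotypes overlapped in all 5.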
